A study of Homo sapiens with 27 samples.

Results

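The change of the transcriptome between confluence and overconfluence was measured in MMP2sh2 cells, which are U2OS human osteosarcoma cells that stably express the hairpin sh2 (named 26 in the sample labels) against MMP2. The comparison set the 3 overconfluent libraries of day +2 against the 3 confluent libraries of day 0, and its members were all genes that passed a filter on low counts, which left 19168 of the 55882 gene symbols in the files. No control library entered this fit. All 6 libraries came from 1 stable line, made by lentiviral transduction of the pLKO.1 vector and puromycin selection, so every cell compared here carried the hairpin and no value in the main fit measures the hairpin itself. The cells were grown in DMEM with fetal bovine serum, plated sparsely at day −2, harvested at day 0 when confluent or left for 2 more days to become overconfluent. The study describes its replicates as independent biological ones, and the labels do not say whether they were separate platings. It also sequenced MMP2sh2 cells at day −2, another hairpin line (MMP2sh1, named 23) and a pLKO.1 control line with the empty vector, whose sample titles read WT, in 27 libraries altogether. The control and MMP2sh1 libraries of day 0 and day +2 (3 in each group) were used only to ask whether the step differed between lines.

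When adherent cells fill their dish they are exposed to contact inhibition: cell-cell junctions and reduced spreading restrain the YAP coactivator, mitogen signalling weakens and cells drift out of the cell cycle. At the same time nutrients and growth factors in the medium are used up and secreted products accumulate, which engages lysosomal, amino acid and oxygen sensing pathways. MMP-2 is a secreted gelatinase with a nuclear pool that clips the tail of histone H3, and cathepsin B (CTSB) is a lysosomal protease that the study examined beside it. U2OS cells derive from a bone tumour and retain part of the osteoblast programme.

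MMP2, the gene the hairpin targets, lay on chromosome 16 of GRCh37 from 55423612 to 55540603 on the plus strand. Its level was 151, 156 and 158 CPM in the confluent libraries and 276, 288 and 267 CPM in the overconfluent libraries, where CPM is the count scaled to a common library total after TMM scaling (a correction for differences in library composition). The 3 overconfluent libraries all lay above the 3 confluent ones (MMP2, log2 fold change 0.84, standard error 0.047, adjusted p = 9.2e-15, from the quasi-likelihood test of edgeR with Benjamini-Hochberg adjustment over all genes tested, as for every adjusted p below). MMP2 mRNA therefore rose in a line that carries a hairpin against it. CTSB was at 887, 927 and 887 CPM in the confluent libraries and 1752, 1777 and 1766 CPM in the overconfluent libraries (log2 fold change 0.98, standard error 0.036, adjusted p = 4.8e-19), again without overlap.

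Osteoblast lineage markers were partly present. Of 13 markers, 8 passed the filter, and RUNX2, the lineage's master transcription factor, was at 46.4 ± 2.27 to 61.4 ± 2.94 CPM (mean ± SD, n = 3) and rose by 0.41 on the log2 scale. The phosphatase ALPL (1.57), the matrix phosphoprotein osteopontin SPP1 (1.50) and the endopeptidase PHEX (2.89) also rose, while MSX2 (−0.50) fell, a call that was lost without overconfluent replicate 1. The markers SP7, BGLAP and IBSP, DMP1 and COL1A2 were too low to be tested. Markers of other cell types were low: summed over the list, epithelial markers took 7.87 to 9.89 CPM at confluence and 13.99 to 15.6 CPM at overconfluence, blood markers 0.757 to 0.932 and 0.396 to 1.54 CPM, endothelial markers 4.47 to 6.63 and 3.20 to 4.59 CPM, and skeletal muscle markers 4.56 to 5.05 and 4.40 to 5.19 CPM. The filter was passed by 4 of 7 epithelial, 1 of 8 blood, 3 of 5 endothelial and 1 of 5 muscle markers. Of the 4 epithelial ones, 1 rose and 1 fell, with changes from −3.16 to 1.94. No marker of the other 3 types was called. MYOD1, MYOG, CD3E, GRHL2 and ESRP1 were among the markers that did not pass.

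Libraries of both stages were deep and close in size, with 36286940 to 38005772 counts on genes at confluence and 39429387 to 40844889 at overconfluence. The share of counts on mitochondrial genes was 5.21% to 5.63% at confluence and 6.10% to 6.41% at overconfluence, and reads on no annotated gene made up 7.79% to 8.01% and 8.15% to 8.79% of the counted total. Both shares moved with the stage without overlap, and their part in the results below was not tested. Overconfluent replicate 3 differed somewhat more from its group, with chi-square statistics over genes, divided by their degrees of freedom, of 9.30 and 11.02 against 4.74 to 6.87 for the other pairs of the 2 groups. Without it, 8652 genes were called between the stages.

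Of the 19168 genes tested, 8719 were called at an adjusted p under 0.05, which is 45.5% of them. A rise was called for 4318 genes (22.5%) and a fall for 4401 genes (23.0%), so calls were split almost evenly by direction. Large changes were mostly rises: 1185 genes rose and 631 fell by more than 2-fold. The median size of a called change was 0.47 on the log2 scale, and the median change of all genes tested was 0.012. The 6 libraries did not overlap between the stages for 10093 genes (52.7%), 8301 of which were called. The first principal component held 61.2% of the variance and separated the stages completely, with confluent libraries at −50.1 to −49.1 and overconfluent libraries at 47.7 to 51.05. With so many genes called, the shares 22.5% and 23.0% are the background for each group of genes below.

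**Figure D1:**
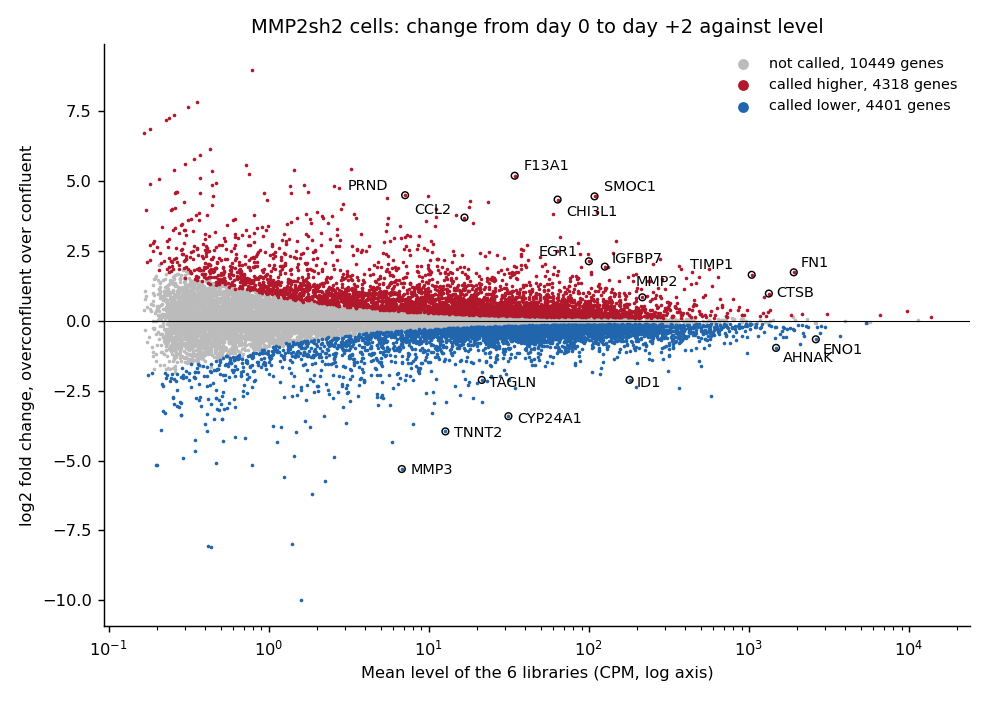
Each point is 1 of the 19168 genes tested, with its mean CPM over the 6 MMP2sh2 libraries on a log axis and its log2 fold change from confluent to overconfluent on the other. Red points were called higher (4318), blue points lower (4401) and grey points neither. F13A1 rose most and MMP3 fell most of the labelled genes, and among genes with the most reads FN1 stood out by its rise.

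The 10 genes with the largest rises, among those called with a mean of at least 5 CPM and with stages that did not overlap, were F13A1, PRND, MYH16, SMOC1, CST5, CHI3L1, SLC14A1, RGS16, PLCH1 and CRYBA4. F13A1 encodes the catalytic subunit of coagulation factor XIII, a transglutaminase that crosslinks fibrin and fibronectin, and lies on chromosome 6 of GRCh37 (6144317 to 6321246, minus strand). It was at 2.01, 1.97 and 1.54 CPM in the confluent libraries and 67.5, 60.9 and 72.6 CPM in the overconfluent libraries (log2 fold change 5.19, standard error 0.11, adjusted p = 1.7e-24). The gene was near its floor at confluence and clearly expressed in all overconfluent libraries.

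SMOC1 encodes a secreted calcium-binding matrix protein that acts on BMP signalling. It lay on chromosome 14 (70320848 to 70499083, plus strand), and its level was 8.25, 9.90 and 10.4 CPM in the confluent libraries and 211, 219 and 193 CPM in the overconfluent libraries (log2 fold change 4.46, standard error 0.076, adjusted p = 2.3e-26). CHI3L1 encodes the secreted chitinase-like protein YKL-40, made by chondrocytes and by inflamed tissue, and was at 7.42, 6.06 and 4.64 CPM in the confluent libraries and 128, 124 and 113 CPM in the overconfluent libraries (log2 fold change 4.34, standard error 0.10, adjusted p = 1.1e-23). Both were more than 10 times higher in every overconfluent library than in any confluent one. RGS16, a GTPase activator that ends G protein signalling, went from 2.47, 1.97 and 2.56 to 44.4, 46.6 and 43.6 CPM (log2 fold change 4.27, standard error 0.11, adjusted p = 1.2e-22). PRND, which encodes the prion-like protein doppel (4.497), the urea transporter SLC14A1 (4.29), the phospholipase C PLCH1 (4.06), the cystatin CST5 (4.39), the crystallin CRYBA4 (3.995) and the myosin pseudogene MYH16 (4.46) completed the group.

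The 10 largest falls were those of MMP3, GSG1, TNNT2, PDLIM1, CYP24A1, LINC00842, SBSN, HNRNPA1P33, DOCK2 and ANO2. MMP3, the matrix metalloproteinase stromelysin, lay on chromosome 11 (102706532 to 102714340, minus strand) and was at 11.4, 14.7 and 13.6 CPM in the confluent libraries and 0.336, 0.0233 and 0.638 CPM in the overconfluent libraries (log2 fold change −5.30, standard error 0.29, adjusted p = 6.1e-15). It thus moved opposite to MMP2. TNNT2, cardiac troponin T, was at 23.9, 27.2 and 20.5 CPM in the confluent libraries and 0.985, 1.45 and 2.15 CPM in the overconfluent libraries (log2 fold change −3.96, standard error 0.17, adjusted p = 1.5e-17), and PDLIM1, an actinin-binding scaffold of stress fibres, went from 14.1, 14.7 and 15.9 to 0.505, 1.28 and 1.65 CPM (log2 fold change −3.69, standard error 0.21, adjusted p = 9.7e-15). CYP24A1, the mitochondrial enzyme that inactivates vitamin D, was the most abundant gene of the group and went from 58.2, 55.8 and 58.6 to 4.998, 5.73 and 5.41 CPM (log2 fold change −3.41, standard error 0.086, adjusted p = 1.2e-22). All 3 were several times lower in every overconfluent library. The remaining falls were those of the long noncoding RNA LINC00842 (−3.31), the epidermal protein suprabasin SBSN (−2.99), the Rac activator DOCK2 (−2.90), the chloride channel ANO2 (−2.90), GSG1 (−4.32) and HNRNPA1P33 (−2.93). HNRNPA1P33 is a processed copy of HNRNPA1 whose reads may be shared with its parent. It also lies within LINC00842 on the minus strand of chromosome 10, so the falls of HNRNPA1P33 and LINC00842 may not be separate.

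Among called genes that changed by more than 1.5-fold, those with the most reads that rose were FN1, CTSB, PSAP, TIMP1 and ITGB5. FN1, fibronectin, was at 894, 946 and 810.1 CPM in the confluent libraries and 3052, 2982 and 2757 CPM in the overconfluent libraries (log2 fold change 1.74, standard error 0.046, adjusted p = 2.8e-22). PSAP, the precursor of the lysosomal saposins, went from 878, 901 and 881 to 1610, 1632 and 1538 CPM (log2 fold change 0.85, standard error 0.037, adjusted p = 2.2e-17), and ITGB5, an integrin subunit, went from 589, 582 and 594 to 1040, 1052 and 950.0 CPM (log2 fold change 0.79, standard error 0.042, adjusted p = 2.2e-15). Secreted, lysosomal and cell surface products thus led the rises by read number. The falls with the most reads were those of the glycolytic enzyme ENO1 (3214 ± 94.5 to 2025 ± 60.2 CPM, log2 fold change −0.66, standard error 0.034, adjusted p = 1.0e-15), the membrane-binding protein ANXA2 (−0.82), the prolyl isomerase PPIA (−0.59), the giant scaffold AHNAK (−0.97) and the ferritin light chain FTL (−0.60).

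**Figure D2:**
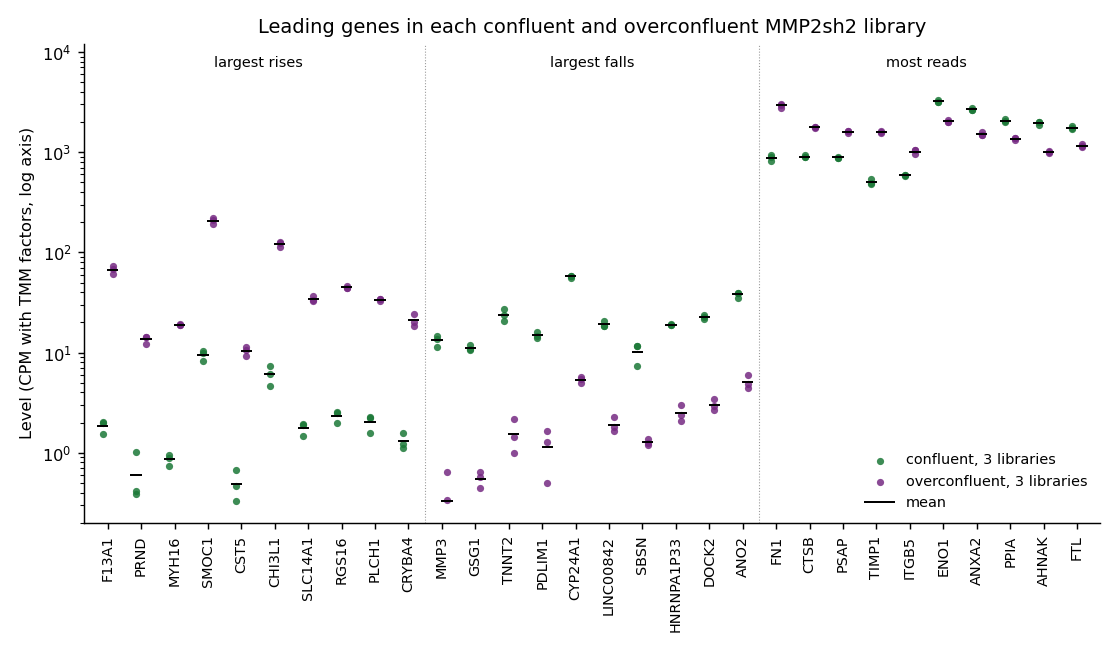
Levels in CPM on a log axis of the 10 largest rises, the 10 largest falls and the 10 genes with the most reads, with 1 point per library (green, 3 confluent; purple, 3 overconfluent) and a bar at each mean. In each of these genes the stages do not overlap, which was a condition of choice for the largest rises and falls. F13A1 and SMOC1 lie more than 10 times higher at overconfluence.

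Nearly all genes of cell proliferation fell, each by a modest amount. Of 31 tested genes of DNA replication and the G1/S transition, 28 fell and 0 rose (median log2 fold change −0.38), and of 27 genes of mitosis, 25 fell and 0 rose (median −0.34). The small subunit of ribonucleotide reductase RRM2 was at 441, 427 and 436 CPM in the confluent libraries and 256, 260.1 and 279.7 CPM in the overconfluent libraries (log2 fold change −0.71, standard error 0.044, adjusted p = 1.0e-13). Cyclin E1, encoded by CCNE1 (−0.67), the licensing factor CDC6 (−0.66), the methylation maintenance factor UHRF1 (−0.62), the helicase loader CDC45 (−0.57) and the transcription factor E2F1 (−0.54) fell as well. The replication genes without a call were LIG1 (−0.042), MCM6 (−0.11) and the sliding clamp PCNA (−0.10). In mitosis, cyclin A2 (CCNA2) went from 195, 184 and 199 to 117, 116 and 135 CPM (log2 fold change −0.65, standard error 0.056, adjusted p = 1.1e-10), the anaphase activator CDC20 fell by 0.61 and the kinase AURKA by 0.56, the master regulator FOXM1 by 0.52 and the proliferation antigen MKI67 by 0.38. In a culture measured as a whole, fewer cycling cells and less RNA per cycling cell cannot be told apart.

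Replication genes are classic targets of E2F, the factor family that drives entry into S phase, and several carried its site next to their start. The letters TTTNGCGC were searched on both strands in RefSeq promoters (250 bases before to 50 after the start, GRCh38.p14), and were found in 11 of the 26 replication genes that had a promoter there and in 1.79% of all 35116 promoters (2.42% of the 16436 of tested genes). The same letters were in 2 of the 21 mitosis genes with a promoter. Of the 11 replication genes, 10 were called lower, a share close to the 28 of 31 of the whole list. MCM6, which held the letters at several places, was not called. Of the 10 that fell, 6 are shown because they belong to the part of the falling group that shares a sequence. They run 5′ to 3′ along the gene, with the match or its reverse complement in capitals. A match is a description of the letters and no measurement of binding.
E2F1, chr20:33686387-33686416, minus strand: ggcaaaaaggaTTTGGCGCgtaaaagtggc
CDC6, chr17:40287875-40287904, plus strand: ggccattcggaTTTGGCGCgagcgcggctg
MCM3, chr6:52284728-52284757, minus strand: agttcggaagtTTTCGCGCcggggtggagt
MCM7, chr7:100101388-100101417, minus strand: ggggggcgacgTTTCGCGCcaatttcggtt
UHRF1, chr19:4909973-4910002, plus strand: cccgagcccgaTTTCGCGCgccctgagttc
MCM2, chr3:127598402-127598431, plus strand: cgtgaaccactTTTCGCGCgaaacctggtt
E2F1 itself carried the letters 20 bases before its start. MCM2 (−0.38), MCM3 (−0.21) and MCM7 (−0.27) encode subunits of the replicative helicase. The other 4 of the 10 that fell were CDT1 (−0.30), ORC6 (−0.42), GINS1 (−0.17) and POLA1 (−0.21). The call of GINS1 was lost without confluent replicate 1 (−0.19) or 3 (−0.14) or overconfluent replicate 2 (−0.16) or 3 (−0.13), and that of POLA1 without overconfluent replicate 1 (−0.19).

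Inhibitors of the cell cycle changed in both directions. The CDK inhibitors CDKN1B (p27), which went from 86.7, 79.2 and 84.0 to 108, 123 and 117 CPM (log2 fold change 0.49, standard error 0.058, adjusted p = 5.5e-08) and CDKN1C (0.61) rose, as did cyclin G2 (CCNG2, 0.79) and the pocket protein RBL2 (0.28). CDKN1A (p21), the p53 target, fell (−0.29), and CDKN2A and CDKN2B were too low to be tested. These genes belong to a list that holds G1 cyclins as well as inhibitors. Of its 14 tested members, 6 rose and 1 fell, and the G1 cyclin D2 (0.58) was among those that rose. MYC went from 119.999, 124 and 123 to 50.2, 49.5 and 51.9 CPM (log2 fold change −1.27, standard error 0.056, adjusted p = 3.4e-17), while its antagonist MXD4 (0.91) and its relative MYCN (0.93) rose. The list of p53 targets was mixed, with 5 of 15 higher and 6 lower.

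Most genes associated with quiescence and with FOXO activity rose. Of 19 tested, 14 rose and 1 fell (median 0.84). PDK4, the kinase that shuts pyruvate dehydrogenase, was at 0.550, 1.01 and 1.62 CPM in the confluent libraries and 6.22, 5.90 and 6.17 CPM in the overconfluent libraries (log2 fold change 2.52, standard error 0.25, adjusted p = 1.5e-09). The antiproliferative factor BTG1 (1.43), the PI3K inhibitor PIK3IP1 (1.41), the transcription factor KLF9 (1.30), the arrestins ARRDC4 (1.13) and TXNIP (1.12), which restrain glucose uptake, and the stress protein SESN3 (1.05) rose as well. CITED2 was the member that fell (−1.50). Of the factors themselves, FOXO3 was not called (0.089) and FOXO4 rose by 0.59.

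Targets of the YAP coactivator fell in the main: 16 of 22 tested were lower and 3 higher (median −0.45). CYR61, a matricellular protein and common YAP reporter, was at 313, 329 and 341 CPM in the confluent libraries and 147, 149 and 151 CPM in the overconfluent libraries (log2 fold change −1.13, standard error 0.047, adjusted p = 8.2e-18), without overlap. TGFB2 (−1.89), FJX1 (−1.49), CRIM1 (−1.38), tissue factor F3 (−1.12) and the receptor kinase AXL (−0.73) also fell. CTGF, the other common reporter, was not called (0.030), and ANKRD1 fell by 0.44. Genes of actin and its regulators were mixed, with 10 of 21 lower, 5 higher and a median of −0.091. The smooth muscle type members fell most, with the calponin CNN1 at 7.23, 9.52 and 8.40 CPM in the confluent libraries and 1.83, 1.59 and 2.03 CPM in the overconfluent libraries (log2 fold change −2.20, standard error 0.18, adjusted p = 2.4e-11), transgelin TAGLN at −2.11 and tropomyosin TPM1 at −1.36. The cytoskeletal actin ACTB fell by much less (−0.091), and the LIM protein FHL2 rose (0.86).

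The extracellular matrix programme changed by class. Of 8 fibril-forming collagen chains, 1 rose (COL11A1, 1.102) and 2 fell (COL5A3, −2.58, and COL27A1, −0.56), while COL1A1 was not called (−0.061). Of 16 other collagens, 12 rose and 2 fell (median 0.65), led by the basement membrane chains COL4A6 (1.97) and COL4A5 (1.29) and the microfibrillar chain COL6A3, which went from 331, 329 and 322 to 992, 981 and 908 CPM (log2 fold change 1.56, standard error 0.043, adjusted p = 6.8e-22). COL12A1 (−0.96) and COL16A1 (−0.80) fell. Among 26 glycoproteins and proteoglycans, 15 rose and 4 fell. Besides FN1, the mineralisation inhibitor MGP (0.172 ± 0.0448 to 4.93 ± 0.413 CPM, log2 fold change 4.83, standard error 0.31, adjusted p = 1.4e-13), nidogen NID2 (0.93) and ECM1 (1.102) rose, while thrombospondin THBS1 (−1.43), TGFBI (−1.29), perlecan HSPG2 (−0.81) and fibulin EFEMP1 (−0.71) fell. Lysyl oxidases, which crosslink collagen, also split, with LOXL1 (0.94) and LOXL3 (0.77) higher and LOX (−0.77) and LOXL2 (−1.03) lower.

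Matrix proteases moved in both directions around MMP2. Of 22 tested, 9 rose and 10 fell. MMP14, the membrane protease that activates pro-MMP-2 at the cell surface, went from 129, 120.1 and 114 to 229, 228 and 206 CPM (log2 fold change 0.88, standard error 0.055, adjusted p = 1.0e-13). The other gelatinase MMP9 went from 5.19, 6.31 and 4.46 to 31.8, 28.5 and 20.3 CPM (log2 fold change 2.34, standard error 0.14, adjusted p = 3.5e-14) and the urokinase PLAU went from 41.6, 41.3 and 42.1 to 116, 114 and 106 CPM (log2 fold change 1.43, standard error 0.060, adjusted p = 1.2e-17). The activator and the other gelatinase thus rose with MMP2. The aggrecanase ADAMTS1 (3.11 ± 0.165 to 0.253 ± 0.116 CPM, −3.60) fell, as did ADAM12 (−1.34) and MMP24 (−1.34). Protease inhibitors rose without exception among those called, 7 of 11 (median 0.69). TIMP1, the secreted inhibitor of metalloproteinases, was at 495, 540.2 and 481 CPM in the confluent libraries and 1574, 1614 and 1544 CPM in the overconfluent libraries (log2 fold change 1.65, standard error 0.042, adjusted p = 1.3e-22). The broad protease trap A2M (2.78), SERPINF1 (1.55), SERPINE2 (1.08) and cystatin C, CST3 (0.93), rose, TIMP2, which also docks pro-MMP-2 to MMP14, rose by 0.29, and TIMP3 (−0.047) was not called.

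Receptors for matrix rose in the main. Of 15 integrin subunits, 10 rose and 1 fell (ITGA4, −0.94). ITGB3, the beta chain of the vitronectin receptor, went from 7.15, 7.27 and 7.25 to 41.5, 40.1 and 38.6 CPM (log2 fold change 2.48, standard error 0.088, adjusted p = 2.9e-19) and ITGA2, the alpha chain of the collagen receptor, went from 30.1, 30.7 and 33.5 to 175, 157 and 165 CPM (log2 fold change 2.40, standard error 0.062, adjusted p = 1.8e-22). Cell-cell cadherins were mixed: CDH6 (2.23) and CDH11 (0.80), the osteoblast cadherin, rose, and E-cadherin CDH1 (−3.16, 0.946 ± 0.240 to 0.103 ± 0.0733 CPM) and CDH13 (−1.29) fell. N-cadherin CDH2, the main cadherin of mesenchymal cells, fell by 0.25.

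All 17 tested protocadherin beta genes, a tandem cluster for homophilic adhesion proteins, rose (median 1.098, against 22.5% of all genes called higher). PCDHB9 (1.92), PCDHB7 (1.87) and PCDHB14 (1.85) rose most and PCDHB8 (0.57) least. PCDHB14 went from 6.40, 7.05 and 6.13 to 23.3, 23.2 and 23.6 CPM (log2 fold change 1.85, standard error 0.10, adjusted p = 6.4e-15). The members are near-identical neighbours, so reads may be shared or lost between them and they are not separate observations.

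Most lysosomal genes rose. Of 32 tested, 25 rose and 1 fell (GLA, −0.26), with a median of 0.46. Progranulin, GRN, was at 242, 258 and 240.0 CPM in the confluent libraries and 547, 571 and 491 CPM in the overconfluent libraries (log2 fold change 1.13, standard error 0.051, adjusted p = 5.3e-17). The tetraspanin CD63 (1.25), the glycosaminoglycan hydrolases IDUA (1.27) and IDS (1.13), the fucosidase FUCA1 (0.96), the hexosaminidase subunit HEXA (0.77) and the sphingomyelinase SMPD1 (0.77) rose. TFEB, the transcription factor of lysosome biogenesis, rose by 0.81. Of 10 cathepsins, 7 rose and 3 fell. Beside CTSB, the aspartic protease CTSD (77.4 ± 2.18 to 118 ± 9.93 CPM, 0.61), the bone collagenase CTSK (1.13), CTSO (1.30) and CTSF (0.79) rose. CTSL, the cathepsin that clips histone H3 in other cells, fell, from 114, 120.2 and 122 to 68.0, 71.8 and 66.4 CPM (log2 fold change −0.78, standard error 0.056, adjusted p = 2.0e-12), and CTSH (−0.40) and CTSC (−0.14) fell too. Without overconfluent replicate 1, the calls of CTSH (−0.31) and CTSC (−0.15) were lost and that of CTSL was kept. CTSC also lost its call without each confluent library and without overconfluent replicate 2 (−0.081).

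The palindrome TCACGTGA, the element bound by TFEB, was found in the promoters of 3 of the 20 lysosomal genes and 1 of the 7 cathepsins with a RefSeq promoter, and in 0.980% of all promoters (1.47% of those of tested genes). The 4 genes are shown for the position of the element close to the start. Where a promoter held the letters more than once, the first window is given.
CTSA, chr20:45891298-45891327, plus strand: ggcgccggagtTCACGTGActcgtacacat
GAA, chr17:80101493-80101522, plus strand: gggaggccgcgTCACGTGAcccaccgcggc
LAMP1, chr13:113297199-113297228, plus strand: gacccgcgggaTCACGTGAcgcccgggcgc
MCOLN1, chr19:7522571-7522600, plus strand: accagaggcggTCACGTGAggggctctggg
CTSA (0.43), GAA (0.44) and LAMP1 (0.20) rose, and the calcium channel MCOLN1 was not called (0.23, adjusted p = 0.074).

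Genes of energy metabolism fell in the main. Of 19 genes of glucose uptake and glycolysis, 14 fell and 2 rose (median −0.38). Lactate dehydrogenase LDHA was at 1354, 1333 and 1333 CPM in the confluent libraries and 579, 557 and 658 CPM in the overconfluent libraries (log2 fold change −1.16, standard error 0.045, adjusted p = 2.6e-18). GPI (−0.78), PGAM1 (−0.70), ALDOA (−0.59), TPI1 (−0.54) and GAPDH (−0.53) also fell, and the glucose transporter SLC2A3 (0.66) and ALDOC (0.33) rose. The call of ALDOC was lost in 4 of the 6 fits without 1 library, with DESeq2 (adjusted p = 0.063) and with all 27 libraries in 1 fit (adjusted p = 0.093). Of 78 nuclear genes of oxidative phosphorylation, 58 fell and 1 rose (median −0.30), led by the ATP synthase subunits ATP5G1 (−0.76) and ATP5B (−0.66) and by SDHB (−0.65). The 13 mitochondrial mRNAs did not share this fall, with 5 higher and 3 lower, and 1 higher and 2 lower with all 27 libraries in 1 fit. Hypoxia genes were mixed, with 6 of 14 higher and 3 lower: the mTORC1 inhibitor DDIT4 (from 15.7, 15.2 and 18.2 to 59.3, 61.2 and 58.0 CPM, log2 fold change 1.87, standard error 0.077, adjusted p = 8.5e-18) and the growth factor VEGFA (1.35) rose, and the mitophagy receptor BNIP3 (−1.22) fell.

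Most genes of lipid synthesis fell, and several genes of cholesterol transport rose. In sterol synthesis, 15 of 20 genes fell and 0 rose (median −0.42), among them HMGCS1 (−0.56), SQLE (−0.52) and EBP (−0.63). In fatty acid synthesis, 7 of 11 fell and 2 rose (median −0.26). Fatty acid synthase FASN went from 858, 930.1 and 862 to 520.3, 524 and 469 CPM (log2 fold change −0.80, standard error 0.045, adjusted p = 1.2e-14), and ACACA (−0.71), ACLY (−0.67), SCD (−0.70) and ME1 (−0.76) fell beside it, while the elongase ELOVL6 rose (0.35). The cholesterol exporter ABCA1, a target of the LXR receptors, was at 1.40, 1.78 and 1.51 CPM in the confluent libraries and 12.1, 12.6 and 14.49 CPM in the overconfluent libraries (log2 fold change 3.07, standard error 0.16, adjusted p = 1.1e-15), and ABCG1 (1.12), the LXR target MYLIP (0.60) and the lysosomal cholesterol carrier NPC2 (0.85) rose. INSIG1 (−0.38), which retains the sterol sensor in the endoplasmic reticulum, fell with the enzymes. The sterol element, searched as TCACNCCAC, was in 0 of the 15 sterol synthesis genes, 0 of the 10 fatty acid genes and 1 of the 8 sterol regulators with a promoter, and in 1.13% of all promoters (1.08% of those of tested genes).

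Targets of the integrated stress response, in which phosphorylation of eIF2 raises translation of ATF4, rose in part: 17 of 26 rose and 3 fell (median 0.48). The glutathione-degrading enzyme CHAC1 was at 4.54, 5.87 and 3.50 CPM in the confluent libraries and 16.2, 13.8 and 13.2 CPM in the overconfluent libraries (log2 fold change 1.64, standard error 0.15, adjusted p = 2.3e-10), asparagine synthetase ASNS went from 75.2, 78.0 and 82.2 to 171, 167 and 192 CPM (log2 fold change 1.18, standard error 0.057, adjusted p = 3.4e-16), and the secreted stress cytokine GDF15 went from 7.06, 3.95 and 6.81 to 18.1, 22.5 and 17.6 CPM (log2 fold change 1.71, standard error 0.15, adjusted p = 1.1e-10). The transcription factors CEBPB (0.94) and DDIT3 (0.77) and the serine pathway enzyme PHGDH (0.58) rose, and ATF5 (−0.83), SLC7A1 (−0.22) and MTHFD2 (−0.22) fell. The letters TGATGNAA, the core of the ATF4 and C/EBP composite element, were in 5 of the 21 genes of this list with a RefSeq promoter and in 3.62% of all promoters (2.17% of those of tested genes).
ASNS, chr7:97872458-97872487, minus strand: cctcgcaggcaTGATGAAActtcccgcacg
CHAC1, chr15:40953251-40953280, plus strand: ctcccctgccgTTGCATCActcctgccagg
SLC3A2, chr11:62881719-62881748, plus strand: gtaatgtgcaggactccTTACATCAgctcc
CEBPG, chr19:33374060-33374089, plus strand: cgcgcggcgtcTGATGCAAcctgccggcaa
SLC7A1, chr13:29595663-29595692, minus strand: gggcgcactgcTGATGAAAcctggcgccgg
They are shown because genes with the same letters differed in their change: ASNS, CHAC1 and the amino acid transporter chain SLC3A2 (0.40) rose, CEBPG was not called (−0.10) and SLC7A1 fell.

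Chaperones of the cytosol and mitochondria fell in the main, 13 of 15 with 1 higher (median −0.44). The mitochondrial chaperonin HSPD1 went from 749, 713 and 724 to 393, 383 and 422 CPM (log2 fold change −0.86, standard error 0.043, adjusted p = 5.0e-16), with its partner HSPE1 (−0.75) and the cytosolic chaperonin subunit CCT5 (−0.75) beside it. Chaperones of the endoplasmic reticulum were mixed (5 of 17 higher, 5 lower), with HERPUD1 (0.63) up and the master chaperone HSPA5 (−0.21) down. Genes of the antioxidant NRF2 response fell more often than they rose, 7 against 2 of 12, and thioredoxin reductase TXNRD1 went from 296, 291 and 294 to 103, 92.5 and 117 CPM (log2 fold change −1.49, standard error 0.059, adjusted p = 3.2e-18), with sulfiredoxin SRXN1 (−1.13) lower too.

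Ribosomal protein genes fell slightly, with 53 of 83 lower, 4 higher and a median of −0.17. The largest falls of the list were at loci whose reads can be split or discarded, RPS10 (−1.63) and RPL17 (−1.44), followed by RPS29 (−0.61). Zinc finger genes of the ZNF family, on the other hand, rose in 128 of 433 and fell in 32, which are shares of 29.6% higher and 7.39% lower beside the 22.5% and 23.0% of all genes. The number higher was smaller in most other fits, with 103 of 443 with DESeq2, 105 of 439 with all 27 libraries in 1 fit and 100 to 118 without 1 library, and the number lower was 28 to 36 over these.

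Growth factor response genes moved in both directions. Of 23 immediate early and ERK feedback genes, 14 rose and 6 fell. EGR1, a zinc finger factor induced within minutes of mitogen exposure, was at 35.2, 34.9 and 41.8 CPM in the confluent libraries and 172, 166 and 150.4 CPM in the overconfluent libraries (log2 fold change 2.13, standard error 0.068, adjusted p = 2.8e-20). FOS (1.52), EGR2 (2.30), the ERK phosphatase DUSP6 (1.79) and the feedback inhibitors SPRY4 (1.74) and SPRY2 (1.57) rose, while DUSP1 (−1.92), FOSL2 (−0.86) and JUN (−0.48) fell. Of the EGF family, the ligands EREG (2.62) and TGFA (1.81) and the receptor EGFR (0.77) rose, and NRG1 (−2.58), HBEGF (−0.60) and the receptor ERBB3 (−1.52) fell. Binding proteins of insulin-like growth factors moved apart, with IGFBP5 (from 99.99, 102 and 97.9 to 474, 471 and 423 CPM, log2 fold change 2.20, standard error 0.051, adjusted p = 1.8e-23) and IGFBP7 (1.94) up and IGFBP6 (−1.30) down.

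Most genes of the circadian clock rose, 12 of 16, while 3 fell (median 0.93). The repressors PER1, PER2 and PER3 rose by 1.19, 1.28 and 0.84, the output factors DBP (1.15) and TEF (1.22) and the nuclear receptor NR1D1 (from 26.1, 26.3 and 27.5 to 79.3, 83.4 and 76.9 CPM, log2 fold change 1.59, standard error 0.065, adjusted p = 6.9e-18) rose too, and the activators ARNTL (−0.33) and CLOCK (−0.39) and the repressor CRY1 (−0.53) fell. Each stage was sampled at 1 day, and the hour of harvest is not given in the sources used here. The E-box CACGTG, the site of the CLOCK and ARNTL pair, was in 5 of the 15 clock genes with a RefSeq promoter, all 5 of them called higher, and in 7.26% of all promoters (8.87% of those of tested genes). These letters also lie within TCACGTGA.
PER1, chr17:8152560-8152589, minus strand: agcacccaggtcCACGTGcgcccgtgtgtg
TEF, chr22:41367248-41367277, plus strand: gcgcgacagctcCACGTGctgcagctggcg
NR1D2, chr3:23945954-23945983, plus strand: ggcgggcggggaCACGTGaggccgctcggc
BHLHE40, chr3:4979187-4979216, plus strand: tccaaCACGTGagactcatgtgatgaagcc
BHLHE41, chr12:26125068-26125097, minus strand: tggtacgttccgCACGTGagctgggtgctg
In addition to PER1 and TEF, these were the receptor NR1D2 (0.50) and the repressors BHLHE40 (1.01) and BHLHE41 (1.49).

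Innate immune genes rose in the main. Of 27 interferon-stimulated genes, 19 rose and 1 fell (median 0.64), and of 15 genes of HLA class I and antigen processing, 13 rose and 1 fell (median 0.54). The interferon-stimulated genes that rose numbered 16 to 18 without 1 library and 16 of 29 with DESeq2. Those that fell numbered 0 to 2 without 1 library. IFIT2, an inhibitor of viral translation, was at 3.41, 1.78 and 3.05 CPM in the confluent libraries and 10.4, 8.32 and 10.7 CPM in the overconfluent libraries (log2 fold change 1.84, standard error 0.18, adjusted p = 1.5e-09), and beta-2 microglobulin B2M went from 353, 322 and 349.7 to 538, 559.8 and 617 CPM (log2 fold change 0.75, standard error 0.048, adjusted p = 2.1e-13). The RNA sensor DDX58 (1.16), OASL (1.81) and the transcription factor STAT2 (0.67) rose, whereas ISG15 (−0.045) was not called. HLA-B rose by 0.58 and HLA-C by 0.54, with reads that may be shared between these similar genes. Of 12 complement genes, 9 rose and 2 fell (median 0.89), among them the inhibitor CFI (2.16) and the serpin SERPING1, which went from 37.8, 37.2 and 42.2 to 116, 116 and 107 CPM (log2 fold change 1.54, standard error 0.064, adjusted p = 9.4e-18). The chemokine CCL2, which attracts monocytes, was at 2.53, 1.78 and 2.87 CPM in the confluent libraries and 31.9, 32.03 and 29.1 CPM in the overconfluent libraries (log2 fold change 3.70, standard error 0.13, adjusted p = 1.4e-19), CCL20 (2.17) rose and the eotaxin CCL26 (−1.95) fell. IL6, IL1A and IL1B were too low to be tested.

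**Figure D3:**
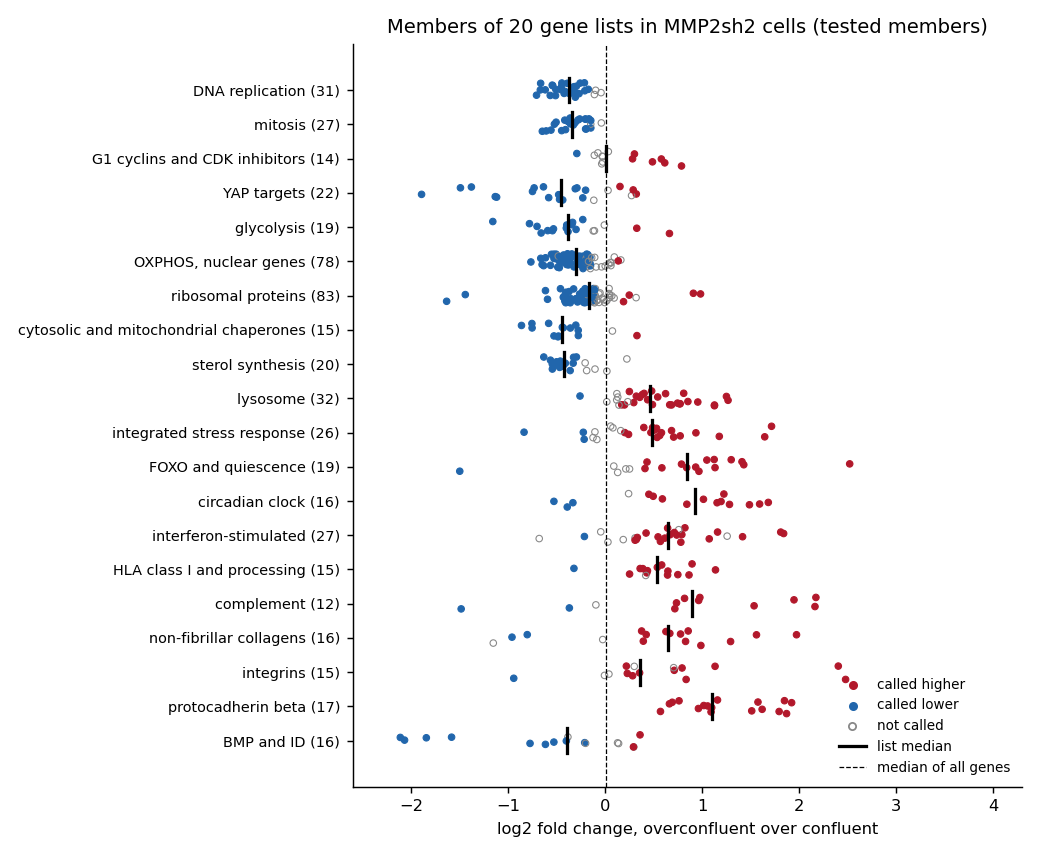
Log2 fold change from confluent to overconfluent of the tested members of 20 gene lists (number of tested members in brackets), with red for called higher, blue for called lower and open circles for not called. Black bars are list medians and the dashed line is the median of all genes, 0.012. The lists of replication, mitosis, glycolysis, chaperones and sterol synthesis lie mostly left of the line, and the lists of the lysosome, protocadherin beta, complement and clock mostly right of it.

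Genes of the BMP branch fell in the main. The ID genes, which encode inhibitors of basic helix-loop-helix factors and are direct targets of BMP and SMAD signalling, all fell. ID1 lay on chromosome 20 of GRCh37 (30193086 to 30194318, plus strand) and was at 288, 284 and 304 CPM in the confluent libraries and 70.7, 71.1 and 60.2 CPM in the overconfluent libraries (log2 fold change −2.11, standard error 0.059, adjusted p = 1.0e-21). ID3 went from 156, 163 and 170.2 to 49.9, 49.2 and 36.7 CPM (log2 fold change −1.84, standard error 0.078, adjusted p = 1.5e-17) and ID4 went from 18.5, 17.3 and 18.2 to 5.09, 3.73 and 3.995 CPM (log2 fold change −2.07, standard error 0.13, adjusted p = 5.4e-14), and ID2 fell by 0.77. The inhibitory SMAD6 (−1.58) and SMAD7 (−0.53) and the ligand BMP4 (−0.61) fell, the antagonist NOG (0.36) and the receptor BMPR2 (0.29) rose, and SMOC1 rose as given above. Over the list, 9 of 16 fell and 2 rose. In the TGF-beta branch, TGFB1 (0.78) rose, while TGFB2, the activin chain INHBA (−0.88) and SMAD3 (−1.18) fell. In the WNT pathway, the stem cell receptor LGR5 (−2.39) and WNT7B (−1.22) fell and the feedback inhibitors RNF43 (2.26) and NKD2 (1.32) rose. In the Notch pathway, the target HES1 (1.40) rose and the receptor NOTCH2 (−0.43) fell.

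Whether this step differed from that of the other lines was tested as the interaction of line and day, on 12 libraries each time. Across the 18627 genes tested in both, the log2 fold changes of MMP2sh2 and of the control correlated with a Pearson r of 0.763, and across 18630 genes those of MMP2sh2 and MMP2sh1 with an r of 0.824. Genes are not independent replicates, so these values are a description. The steps compared share no library. The change in MMP2sh2 differed from that in the control for 984 of 20673 genes (4.76%), with 433 higher and 551 lower in MMP2sh2. It differed from that in MMP2sh1 for 309 of 20626 genes (1.50%), with 82 higher and 227 lower. The study describes a stable line for each hairpin and mentions no other line with the same hairpin. The hairpin and the history of its line can therefore not be told apart.

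**Figure D4:**
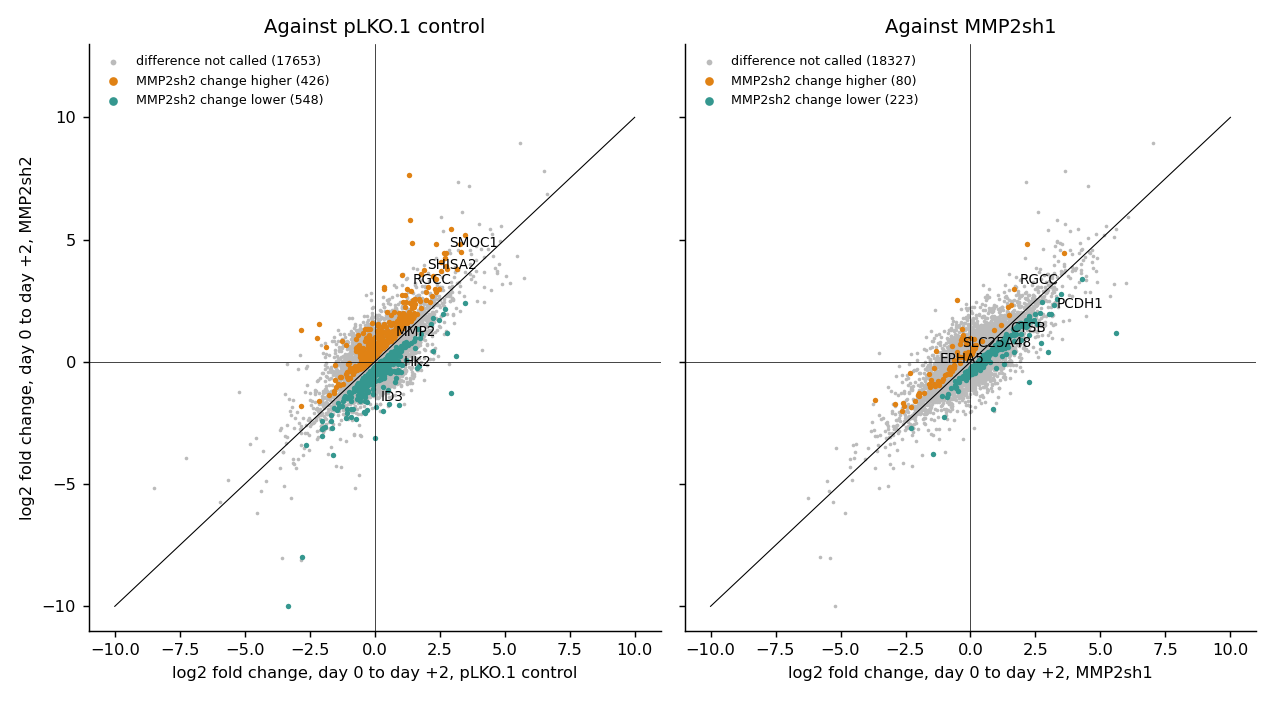
Log2 fold change from day 0 to day +2 in MMP2sh2 (vertical axes) against that in the pLKO.1 control (left) and in MMP2sh1 (right), 1 point per gene tested in both. Orange and green points are genes whose change differed between the lines by the interaction test, and the diagonal marks equal change. Most genes lie along the diagonal, and the coloured genes lie to either side of it, more of them below it than above.

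Against the control, the differences with the largest size among genes of at least 5 CPM were higher changes of SMOC1 (4.46 against 2.65, adjusted p = 2.8e-14), the WNT and FGF antagonist SHISA2 (3.58 against 1.797, adjusted p = 1.5e-06), the cell cycle regulator RGCC (2.97 against 1.25, adjusted p = 1.6e-05) and MYH16 (4.46 against 2.75, adjusted p = 2.0e-06). The largest lower changes were those of ID3 (−1.84 against 0.038, adjusted p = 9.5e-15), ID1 (−2.11 against −0.38, adjusted p = 2.8e-14), ID4 (−2.07 against −0.43, adjusted p = 2.5e-08) and hexokinase HK2 (−0.40 against 0.89, adjusted p = 1.3e-08). The ID genes thus had lower changes in MMP2sh2 than in the control, where ID3 (0.038) and ID2 (0.0022) hardly changed. MMP2 itself rose more (0.84 against 0.61, adjusted p = 0.016). The rise of CTSB was not called different from the control (0.98 against 0.96, adjusted p = 0.89), and 0 of 10 cathepsins differed. Of the BMP and ID list, 9 of 16 differed from the control (7 lower, 2 higher in MMP2sh2), against 4.76% of all genes. From MMP2sh1, 2 of 16 differed, and 1 to 3 without 1 library, against 1.50% of all genes. ID3 fell more in MMP2sh1 (−2.27, adjusted p = 0.0497). The list median was −0.39 in MMP2sh2, −0.51 in MMP2sh1 and −0.13 in the control, so this fall was not particular to MMP2sh2.

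Other lists also held many genes that differed from the control, some with lower and some with higher changes in MMP2sh2. In glycolysis, 10 of 19 did, each lower, including LDHA (−1.16 against −0.76, adjusted p = 1.1e-04) and PGK1 (−0.38 against −0.087, adjusted p = 0.0056). Among nuclear genes of oxidative phosphorylation, 24 of 78 did, each lower, and the list median was −0.30 against −0.091 in the control. Ribosomal protein genes differed in 57 of 83, with 55 lower, and their median was −0.17 in MMP2sh2, −0.058 in MMP2sh1 and 0.15 in the control. Leaving out any of the 12 libraries gave counts of 7 to 12, 16 to 31 and 46 to 65 for these lists. Of the hypoxia genes, 7 of 14 differed, each lower in MMP2sh2, among them the vasodilator peptide ADM (−0.27 against 1.64, adjusted p = 2.0e-06), whose change in MMP2sh2 was not called. The other way, 8 of 26 genes of the integrated stress response differed, each higher in MMP2sh2, among them the cystine transporter SLC7A11 (0.49 against −0.53, adjusted p = 7.2e-09), and 6 of 10 sterol regulators differed, 5 of them higher. The count of stress response genes was less certain, at 3 without MMP2sh2 confluent replicate 1, 4 without control overconfluent replicate 3 and 5 without control confluent replicate 2 or 3, MMP2sh2 confluent replicate 2 or 3 or MMP2sh2 overconfluent replicate 1. Against MMP2sh1, the counts for glycolysis, oxidative phosphorylation and ribosomal proteins were 1 of 19, 0 of 78 and 7 of 83. The ribosomal count against MMP2sh1 rose to 17 without MMP2sh1 overconfluent replicate 2 and to 12 without MMP2sh1 or MMP2sh2 overconfluent replicate 3.

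**Figure D5:**
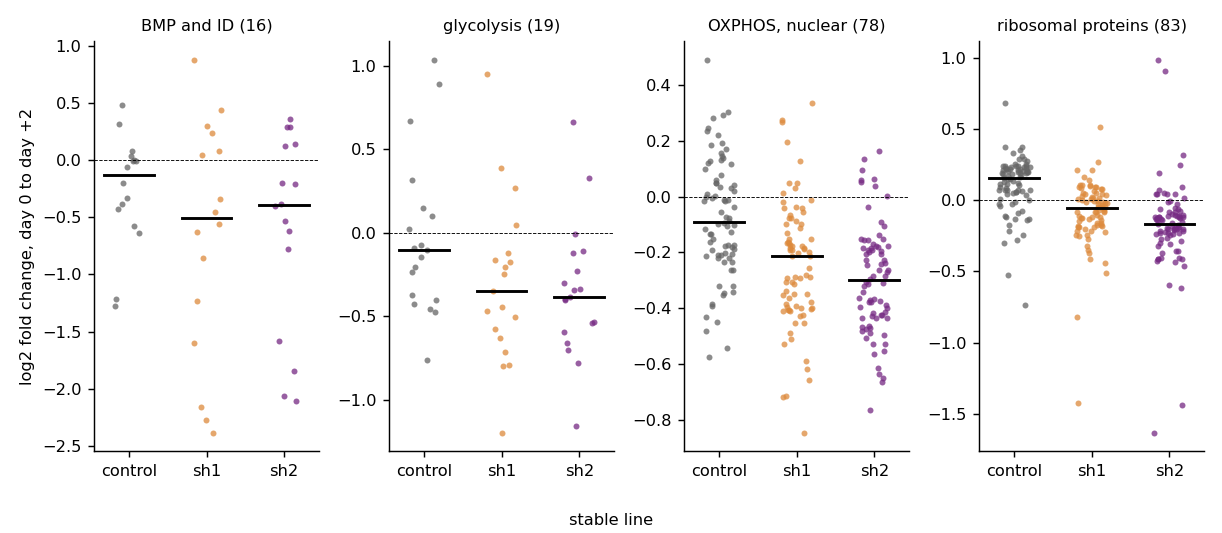
Log2 fold change from day 0 to day +2 of the members of 4 lists in the control (grey), MMP2sh1 (orange) and MMP2sh2 (purple) lines, 1 point per gene, with a bar at each median and a dashed line at 0. Each panel has its own vertical scale. The medians of MMP2sh2 lie below those of the control in all 4 panels, and for ribosomal proteins they lie at −0.17 against 0.15.

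Against MMP2sh1, among the largest higher changes in MMP2sh2 were those of RGCC (2.97 against 1.66, adjusted p = 0.0029), the ephrin receptor EPHA5 (−0.26 against −1.39, adjusted p = 1.1e-04) and the mitochondrial carrier SLC25A48 (0.40 against −0.53, adjusted p = 0.019). Among the largest lower ones were those of PRR4 (1.08 against 2.26, adjusted p = 1.8e-05), the protocadherin PCDH1 (1.97 against 3.09, adjusted p = 1.7e-04) and C15orf62 (1.97 against 3.03, adjusted p = 0.0043). CTSB rose less in MMP2sh2 than in MMP2sh1 (0.98 against 1.33, adjusted p = 1.1e-04), as did FN1 (1.74 against 2.25, adjusted p = 1.7e-04), MMP14 (0.88 against 1.38, adjusted p = 0.002) and PLAU (1.43 against 2.15, adjusted p = 1.2e-05). Several secreted or matrix-facing genes therefore rose in both hairpin lines and by less in MMP2sh2 than in MMP2sh1. Such rises were not limited to the hairpin lines, as FN1 rose by 1.84 and CTSB by 0.96 in the control. Neither was called different from the rise in MMP2sh2 by the interaction test (adjusted p = 0.61 and 0.89).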

How the data were processed

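Poly(A) RNA of MMP2sh2 cells was sequenced at day 0 and day +2, with 3 libraries in each group, and samples were grouped by their labels. The authors used Trim Galore 0.6.0 for trimming, STAR 2.7.3a for alignment to hg19 and HTSeq 2.0.0 for counting on exons, without strand and in union mode with a minimum alignment quality of 10. The deposited files hold the raw count of each gene symbol, without normalization. The 5 HTSeq summary lines, 16.8% to 19.1% of the counted total over the 27 libraries, stayed out of all library sizes and tests. Reads of overlapping, antisense and near-identical genes are uncertain, and genes of low counts have wider errors.

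From the counts, the 6 libraries were fitted with edgeR 4.0.16 in R 4.3.3 (TMM scaling, filterByExpr with a minimum count of 10 and a minimum total of 15, the quasi-likelihood test, two-sided, Benjamini-Hochberg adjustment, called under 0.05). The study used DESeq2, which is 1 of the alternatives here. Standard errors were obtained as the absolute log2 fold change over the root of F. Levels are CPM with the TMM factors of the 9 MMP2sh2 libraries. Differences between lines were the interaction of line and day on 12 libraries. The fits were tested on simulated data.

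The members of the gene lists, and the comparison itself, were chosen with earlier results of these data known. The genes named were MMP2 and CTSB, the 10 largest rises and 10 largest falls among called genes of at least 5 CPM without overlap, the 5 higher and 5 lower called genes over 1.5-fold with the most reads, up to 6 members per list by size of change, the 4 highest and 4 lowest differences from each other line, and genes with a promoter motif. Other list members were named after their values were seen, and some genes that these rules name are not reported here. Gene positions are from GENCODE on GRCh37, and promoter sequences are from RefSeq on GRCh38.p14. Of its 35116 promoters, 16436 belonged to tested genes, and a gene can have several. A list member counted as holding a motif if any of its promoters did, while the shares of all promoters and of those of tested genes count promoters.

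The alternatives were DESeq2 1.42.0, median-of-ratios scaling, no filter, at least 10 counts in every library, all 27 libraries in 1 fit, the replicate number as a block, and each library left out in turn. P-values measure the spread between these 3 libraries a group.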

Additional observations from a re-analysis of the deposited data

Results flagged for a closer look

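Named genes whose change from day 0 to day +2 differed between MMP2sh2 and another line, by the interaction of line and day in edgeR with an adjusted p under 0.05, are given here by the difference of the 2 log2 fold changes. A negative difference means a lower change in MMP2sh2. Of the 277 genes named, 76 differed from the control (38 higher, 38 lower) and 33 from MMP2sh1 (8 higher, 25 lower). Over all genes tested, 4.76% differed from the control and 1.50% from MMP2sh1. Some of the named genes were chosen by these same differences or by values already seen, so their counts cannot be read against these shares. These are the 2 comparisons between lines, and they share the MMP2sh2 libraries. With 3 libraries a group, single libraries were checked by leaving each out in turn.

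Against the control, the differences of the BMP branch were lower for ID3 (−1.87), ID1 (−1.72), ID4 (−1.63), SMAD6 (−0.9999), ID2 (−0.77) and SMAD7 (−0.46), while NOG (0.70) and BMPR2 (0.30) were higher. In the TGF-beta branch and among YAP targets, the differences were lower for SMAD3 (−0.64), CRIM1 (−0.43), TGFB2 (−0.31) and FJX1 (−0.29) and higher for TGFBI (0.30). Every named gene of glycolysis that differed was lower, with HK2 (−1.29), LDHA (−0.39), SLC2A3 (−0.37), GPI (−0.30), TPI1 (−0.30), PGK1 (−0.29), PGAM1 (−0.27), ALDOA (−0.21) and ENO1 (−0.20). The hypoxia genes ADM (−1.90) and BNIP3 (−0.97) were lower too.

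Of the 10 genes with the largest rises in MMP2sh2, which were chosen for that rise, 6 rose more than in the control, with SMOC1 (1.81), MYH16 (1.72), F13A1 (1.72), RGS16 (1.57), PLCH1 (1.52) and PRND (1.20). The other 4 were not called different, namely CST5 (0.71, adjusted p = 0.21), CHI3L1 (−0.19, adjusted p = 0.52), SLC14A1 (0.10, adjusted p = 0.87) and CRYBA4 (0.33, adjusted p = 0.5). Higher changes were also those of SHISA2 (1.79), RGCC (1.72), MGP (1.54), ITGB3 (0.73), LOXL1 (0.29), FHL2 (0.33) and MMP2 (0.24) among matrix, surface and regulatory proteins. MMP24, which fell in MMP2sh2, had a higher change there than in the control (0.43). Protocadherins differed by 0.85 (PCDHB9) and 0.71 (PCDHB14). In signalling, the difference was higher for CCL2 (1.17), RNF43 (1.11), DDX58 (0.56), IGFBP5 (0.42) and HES1 (0.38) and lower for CCL26 (−1.02), IGFBP6 (−0.91), DUSP1 (−0.85), CFI (−0.54) and TGFA (−0.44).

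In metabolism and stress, ABCA1 (1.02) and the stress genes CHAC1 (1.102), SLC7A11 (1.03), ASNS (0.60), HERPUD1 (0.42) and PHGDH (0.27) had higher changes in MMP2sh2. The sterol and fatty acid genes INSIG1 (0.41) and SCD (0.33) had higher, that is less negative, changes in MMP2sh2. Quiescence and clock genes were higher by 0.59 (PIK3IP1), 0.58 (SESN3), 0.50 (NR1D1) and 0.31 (TEF), and CITED2 was lower by −0.36. Antioxidant genes were lower, with SRXN1 (−1.05), TXNRD1 (−0.31) and FTL (−0.26). Other differences were those of CYP24A1 (−0.77), CCNE1 (−0.31), AHNAK (−0.28), CDC6 (−0.27) and PPIA (−0.26), all lower, and of SLC25A48 (0.69) and IDS (0.33), both higher. Of the ribosomal protein genes named, RPL17 (−0.91), RPS10 (−1.35) and RPS29 (−0.57) were lower.

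Against MMP2sh1, matrix, protease and inhibitor genes were lower, with MMP9 (−0.89), PLAU (−0.73), A2M (−0.72), FN1 (−0.51), MMP14 (−0.51), SERPINE2 (−0.49), LOXL2 (−0.46), CTSB (−0.36), CTSD (−0.32) and COL6A3 (−0.26). Growth factor and immune genes were lower for IGFBP7 (−0.55), NOG (−0.52), IGFBP6 (−0.43), SERPING1 (−0.38), VEGFA (−0.32) and TGFB1 (−0.30). The genes ADM (−1.26), PRR4 (−1.18), PCDH1 (−1.12), C15orf62 (−1.06), AHNAK (−0.36), CCNE1 (−0.36), SLC2A3 (−0.29), CRIM1 (−0.27) and SLC7A1 (−0.27) were lower as well. Higher changes in MMP2sh2 were those of RGCC (1.30), EPHA5 (1.12), SLC25A48 (0.93), MYH16 (0.87), MMP24 (0.68), TGFBI (0.51), ID3 (0.42) and FHL2 (0.41). Without 1 library, SLC25A48 (0.78 to 0.88) lost this call in 4 of the 12 fits.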

How the results depend on the processing

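The number of genes called between the stages, 8719, lay between 7770 and 9007 over all alternatives, and between 7770 and 8652 without 1 library. Its split stayed near even, with the most falls, 54.8%, in the fit of all 27 libraries. The count of genes that differed from the control, 984, fell to 643 without control overconfluent replicate 3 and lay between 643 and 1140 without 1 library. The count that differed from MMP2sh1, 309, was 525 with DESeq2 and 175 to 299 without 1 library. It was 177 and 175 without MMP2sh1 confluent replicate 1 and 2, and 184 and 179 without MMP2sh2 confluent replicate 1 and 2. The cause was not tested. The interactions are thus less certain than the change between the stages.

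With the replicate block, the counts were 9007, 883 and 284. Deviations of same-numbered libraries from their group means correlated by −0.0032, 0.018 and 0.017, and those of differently numbered ones by −0.023 to 0.0067. Not every library correlated best with its own number. Such small values cannot show whether same-numbered libraries were handled together.

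Without 1 library, 7 named genes lost their call and 4 gained one. MSX2 (−0.32), ALDOC (0.27 to 0.33), SLC25A48 (0.24 to 0.42), CTSC, CTSH, GINS1 and POLA1 lost it, and MCM6 (−0.15), PCNA (−0.14), MCOLN1 (0.31) and EPHA5 (−0.32) gained it. With DESeq2, ALDOC and SLC25A48 lost their calls too (adjusted p = 0.063 and 0.077), and ALDOC also with all 27 libraries in 1 fit (adjusted p = 0.093). Of genes without a call, the sign turned for COL1A1 (−0.095 to 0.0026) and CTGF (−0.0052 to 0.076) without 1 library. The median change of all genes moved by no more than 0.025 with any scaling or filter.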
